A study of Homo sapiens with 27 samples.

Results

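Control A375 cells carrying a guide against GFP were compared after 24 h in 20 nM trametinib and after 24 h in the solvent DMSO. The comparison takes 6 of the 27 libraries of the series, 3 per group, chosen by the drug and guide given in the sample titles. A375 is an established line of human melanoma cells whose BRAF is mutated and active. The labels list these control cells as WT and describe the guide as non-targeting. The other 21 libraries are control cells in 1 uM vemurafenib and cells in which TADA2B, a subunit of the SAGA histone acetyltransferase complex, was knocked out with guide 1 or guide 2, each in DMSO, trametinib or vemurafenib for 24 h. GFP-guide cells in the solvent are the control of the main comparison, so a guide and its selection are shared by its 2 groups. Responses of knockout cells are taken over their own DMSO libraries. Whether replicate libraries came from separate cultures is not labelled, nor whether a guide line is a clone or a pool, so the spread between libraries may be technical.

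Trametinib is an inhibitor of MEK1 and MEK2, the kinases that activate ERK in the RAS, RAF, MEK and ERK cascade. Active ERK induces a set of genes that includes its own brakes: dual-specificity phosphatases, which remove the activating phosphates from ERK, and the Sprouty and SPRED proteins, which act upstream on RAS and RAF. In melanocytes and melanoma, ERK signalling also drives entry into the cell cycle through cyclin D1 and the release of E2F factors from RB, and it bears on MITF, the transcription factor that controls pigment genes.

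The 6 libraries held between 74759266 and 87823864 counted reads. On the first principal component of the 6 libraries, which held 97.6% of the variance, the 3 trametinib libraries lay on the opposite side from the 3 DMSO libraries. Mitochondrial transcripts took 1.616% ± 0.053 (SD, n = 3) of the counts in DMSO and 2.195% ± 0.171 under trametinib. Markers of melanoma and melanocytes summed to 1070 to 1140 CPM (counts scaled by TMM to a library of 1e6) in DMSO and 2300 to 2440 CPM under trametinib, with SOX10 and MITF well expressed. Most of the difference was DCT, at 1.12, 0.83 and 0.861 CPM in DMSO and 1040 to 1060 CPM under trametinib. SOX10, MITF and PAX3 rose less, and S100B read 69.1, 71.0 and 73.9 CPM and then 66.0, 64.5 and 66.2 CPM. PMEL, MLANA, TYR and TYRP1 stayed at or under 2.08 CPM in every library. Of 12 leukocyte markers 8 were under 1 CPM in every library, with sums of 19.1 to 19.6 CPM in DMSO and 11.9 to 13.2 CPM under trametinib. LYZ read 17.0, 16.6 and 17.1 CPM of these sums in DMSO and 5.21, 4.65 and 4.55 CPM under trametinib, where PTPRC read 2.91, 2.48 and 2.63 CPM, CD4 2.35, 2.60 and 2.13 CPM and CSF1R 2.07, 1.49 and 1.90 CPM. Keratinocyte markers summed to 69.2 to 75.9 and 67.1 to 70.9 CPM, fibroblast markers to 37.0 to 38.2 and 67.9 to 73.9 CPM, and endothelial markers to 36.3 to 38.8 and 29.4 to 32.4 CPM. The part of mitochondrial content and of these markers in the results was not tested. In bulk RNA, fewer cells expressing a gene and less of its RNA per cell cannot be told apart.

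Of 25199 genes tested with edgeR's quasi-likelihood test, 9185 (36.4%) were called higher and 8191 (32.5%) lower under trametinib, a call being an adjusted p under 0.05. These shares are the background for each count of list members below, and a count near them says little about its list. For lists of protein-coding genes, the protein-coding shares of 40.9% higher and 39.8% lower, given below, are the closer background. Changes of at least 2-fold were called for 4317 genes (17.1%) upward and 3137 (12.4%) downward, of at least 4-fold for 1891 and 1161, and of at least 16-fold for 381 and 212. When at least 1 CPM in 3 libraries was required, which tests fewer genes, 2606 genes were at least 2-fold higher. The levels are relative to the bulk of genes. With library totals as the only scaling, the median log2 change of all genes rose by 0.185 and the share of calls that were higher went from 52.9% to 63.9%; the other tested scalings moved that median by 0.095 or less. Gene classes differed in their split. Of 15826 protein-coding genes, 40.9% were higher and 39.8% lower, and of 4977 long non-coding RNAs, 38.1% were higher and 15.6% lower. At 2-fold, 1314 non-coding RNAs were higher and 535 lower.

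**Figure D1:**
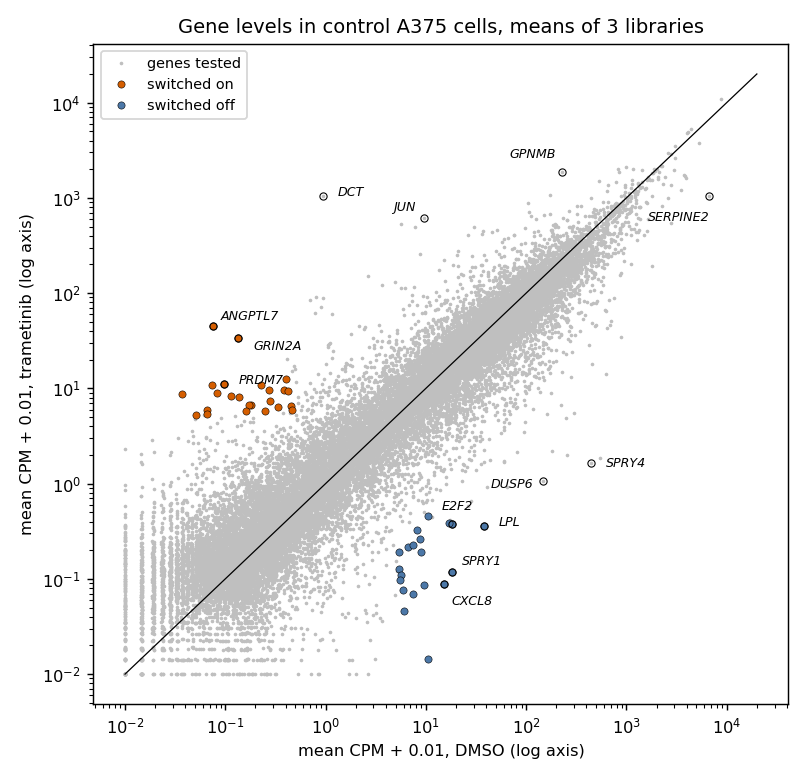
Mean level of each gene tested in the 3 DMSO libraries (x axis, CPM plus 0.01, log scale) against the 3 trametinib libraries (y axis, same scale), with the line of equality. Orange and blue points are the 24 genes switched on and the 20 switched off, under 0.5 CPM in all 3 libraries of the one group and at least 5 CPM in all 3 of the other, and open circles mark named genes such as DCT and SPRY4.

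Transcripts of the cascade that the drug inhibits moved in both directions. Of 27 genes of the core, from RAS to ERK with adaptors, scaffolds and GTPase-activating proteins, 15 were called higher, 10 lower and 2 did not pass. Over all genes tested 36.4% were called higher and 32.5% lower. The median log2 change of the core was 0.13 against 0.06 over all genes tested. MAP2K1, which encodes MEK1, fell from 85.8, 86.2 and 88.0 CPM to 55.8, 54.8 and 57.9 CPM (log2 -0.63 ± 0.04, where the error is the standard error). MAP2K2, which encodes MEK2, rose by 0.27 ± 0.04 on the log2 scale, and MAPK3, an ERK gene, did not pass (log2 0.07 ± 0.04, adjusted p = 0.15 in edgeR's test). BRAF itself read 55.2, 53.4 and 59.2 CPM in DMSO and 82.2, 81.2 and 83.3 CPM under trametinib, without overlap (log2 0.56 ± 0.04). Changes of at least 2-fold went upward for 6 genes and downward for 1. KSR2, a scaffold that holds RAF, MEK and ERK together, rose by 2.84 ± 0.08, from 3.83, 4.60 and 4.51 CPM to 30.9, 30.8 and 30.8 CPM. The related KSR1 rose by 1.06 ± 0.07. GAB1, an adaptor that links receptors to SHP2 and PI3K, rose from 14.4, 13.5 and 13.9 CPM to 81.4, 77.6 and 73.6 CPM (log2 2.48 ± 0.05), and its relative GAB2 by 1.06 ± 0.04. MRAS, a RAS-family GTPase that works with SHOC2, rose by 1.57 ± 0.04. The exception was RASA2, a GTPase-activating protein that switches RAS off, which fell from 34.7, 33.3 and 31.9 CPM to 11.3, 10.2 and 10.2 CPM (log2 -1.65 ± 0.07).

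The brakes of the cascade divided into a larger group that fell and a smaller group that rose. Of 10 MAP kinase phosphatases 7 fell and 3 rose, where 32.5% of all genes tested were called lower and 36.4% higher. DUSP6, which acts on ERK in the cytoplasm, read 150, 146 and 144 CPM in DMSO and 1.08, 0.952 and 1.13 CPM under trametinib (log2 -7.13 ± 0.07, adjusted p = 5.3e-53). DUSP4, a nuclear phosphatase, read 607, 611 and 601 CPM and then 64.8, 66.7 and 65.9 CPM (log2 -3.21 ± 0.03). DUSP10 and DUSP16, which act mainly on the stress kinases JNK and p38, went the other way. DUSP10 rose from 42.9, 42.1 and 44.1 CPM to 141, 138 and 138 CPM (log2 1.69 ± 0.04) and DUSP16 from 26.9, 26.7 and 26.5 CPM to 65.1, 63.9 and 65.2 CPM (log2 1.28 ± 0.04). DUSP8, another phosphatase of the stress kinases, rose by 2.82 ± 0.29 from levels under 0.3 CPM.

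Among 7 Sprouty and SPRED genes 6 fell, each at least 2-fold, and 1 rose. SPRY2 fell from 249, 247 and 253 CPM to 5.34, 4.48 and 4.83 CPM (log2 -5.68 ± 0.06). SPRY1 went from 18.4, 17.4 and 19.3 CPM to 0.147, 0.120 and 0.0543 CPM (log2 -7.38 ± 0.17). The SPRED genes fell less far than SPRY1, SPRY2 and SPRY4, by 1.63 ± 0.05 for SPRED1, 1.99 ± 0.04 for SPRED2 and 2.13 ± 0.05 for SPRED3. SPRY3 was the member that rose, from 2.01, 2.09 and 2.37 CPM to 6.92, 7.11 and 5.77 CPM (log2 1.62 ± 0.11).

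Of 12 ETS and EGR genes tested, 10 fell, 1 rose and 1 did not pass, with a median log2 change of -1.39. The PEA3 factors ETV4 and ETV5 fell by 7.00 ± 0.06 and 6.38 ± 0.06, and the third member, ETV1, from 128, 124 and 125 CPM to 33.9, 32.4 and 31.5 CPM (log2 -1.95 ± 0.04). EGR1, a zinc finger factor induced within minutes of ERK activation, read 26.5, 27.3 and 26.8 CPM and then 1.80, 2.18 and 1.44 CPM (log2 -3.89 ± 0.11). ELK3, a partner of serum response factor, fell by 2.37 ± 0.04. ETS1, itself a substrate of ERK, rose from 95.3, 99.2 and 96.8 CPM to 496, 478 and 478 CPM (log2 2.32 ± 0.03). ELK4 read 130, 129 and 119 CPM and 131, 134 and 117 CPM, and its groups overlapped.

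AP-1 is a dimer of JUN and FOS family proteins that can also include ATF and MAF proteins. Of 14 such genes tested 8 rose, 5 fell and 1 did not pass, where 36.4% of all genes were called higher and 32.5% lower. JUN read 9.63, 10.1 and 8.81 CPM in DMSO and 602, 595 and 637 CPM under trametinib (log2 6.01 ± 0.05, adjusted p = 1.03e-56). ATF3, a stress-induced partner of JUN, went from 2.50, 2.87 and 2.63 CPM to 156, 150 and 152 CPM (log2 5.84 ± 0.06). FOSL2 rose from 31.2, 30.1 and 29.1 CPM to 499, 490 and 509 CPM (log2 4.05 ± 0.04). Its relative FOSL1, a FOS protein stabilised by ERK, fell from 131, 139 and 141 CPM to 9.38, 8.61 and 9.56 CPM (log2 -3.90 ± 0.05). FOS rose by 3.29 ± 0.07 and FOSB fell by 0.79 ± 0.09, so every FOS family member changed, in different directions. MAF rose from 52.8, 52.9 and 49.6 CPM to 467, 473 and 448 CPM (log2 3.16 ± 0.04), whereas the small MAF protein gene MAFF fell by 1.78 ± 0.10. JUND, with 67.5, 74.6 and 70.0 CPM against 74.6, 73.6 and 74.6 CPM, did not pass (adjusted p = 0.158).

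**Figure D2:**
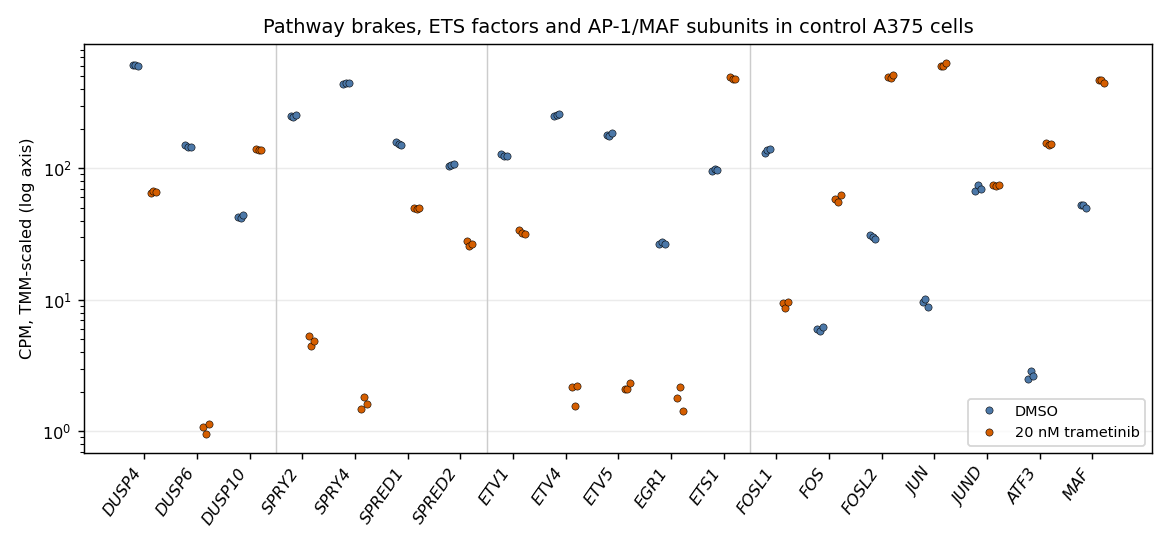
Level of 19 genes in each of the 3 DMSO libraries (blue) and 3 trametinib libraries (orange), in CPM on a log axis, 1 point per library, grouped as phosphatases, Sprouty and SPRED genes, ETS and EGR factors, and AP-1 and MAF subunits. Points of different groups overlap for JUND alone, and DUSP10, ETS1, FOS, FOSL2, JUN, ATF3 and MAF lie higher under trametinib.

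Immediate early genes other than these followed no single direction. Of 20 tested, 14 fell and 6 rose, where 32.5% of all genes tested were called lower and 36.4% higher. IER3, a target of ERK that modulates survival, fell from 117, 111 and 127 CPM to 6.12, 5.83 and 6.27 CPM (log2 -4.28 ± 0.05), and RND3, an atypical GTPase, by 3.20 ± 0.07. ZFP36, which promotes decay of AU-rich transcripts, rose by 1.37 ± 0.06 and its relative ZFP36L2 fell by 2.33 ± 0.04. GEM, a RAS-like GTPase, rose from 7.84, 8.65 and 9.04 CPM to 29.4, 30.0 and 29.0 CPM (log2 1.79 ± 0.06). Of the 4 ID proteins, which block basic helix-loop-helix factors, ID1, ID2 and ID3 rose and ID4 fell. ID2 made the largest change of the family, from 3.39, 2.81 and 2.91 CPM to 27.3, 27.3 and 25.8 CPM (log2 3.14 ± 0.07).

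Of 17 genes tested that control passage through G1, 9 fell, 6 rose and 2 did not pass. The shares over all genes tested were 32.5% lower and 36.4% higher. CCND1, the cyclin D1 gene, read 431, 433 and 410 CPM and then 29.6, 27.5 and 28.9 CPM (log2 -3.89 ± 0.04). CDK6, its kinase partner, fell from 353, 345 and 321 CPM to 83.7, 81.2 and 75.6 CPM (log2 -2.08 ± 0.04), while the other partner, CDK4, read 223, 221 and 235 CPM and 219, 213 and 234 CPM and did not pass (log2 -0.03 ± 0.04, adjusted p = 0.482). CDC25A, the phosphatase that activates CDK2, fell by 3.94 ± 0.08. Inhibitors of these kinases rose in part. CDKN1A, which encodes p21, rose from 144, 145 and 146 CPM to 306, 301 and 324 CPM (log2 1.10 ± 0.03), and CDKN2C, which encodes p18, by 1.38 ± 0.04. CDKN2A stayed at 1.50 to 2.19 CPM in all 6 libraries and did not pass (adjusted p = 0.0687).

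E2F factors bind promoters of S-phase genes, and 9 of the 10 E2F and DP genes fell. E2F2, an activator E2F, read 18.7, 17.5 and 18.1 CPM and then 0.465, 0.398 and 0.231 CPM (log2 -5.61 ± 0.14). E2F1 went from 38.1, 38.8 and 37.5 CPM to 1.70, 1.64 and 1.71 CPM (log2 -4.50 ± 0.08). E2F3, the other activator, fell by 0.81 ± 0.04, and TFDP2, a dimer partner, rose by 0.36 ± 0.04. The start regions of E2F1 and E2F2 are shown because both genes fell at least 16-fold and each window holds a match to the E2F consensus. The windows run from 250 bases before to 50 bases after the transcript start (RefSeq, GRCh38.p14), on the transcribed strand at chr20:33686336-33686635 (minus) for E2F1 and chr1:23531184-23531483 (minus) for E2F2. Capitals mark TTTGGCGC, whose first base lies 20 bases before the start of E2F1 and 42 bases before the start of E2F2.
E2F1: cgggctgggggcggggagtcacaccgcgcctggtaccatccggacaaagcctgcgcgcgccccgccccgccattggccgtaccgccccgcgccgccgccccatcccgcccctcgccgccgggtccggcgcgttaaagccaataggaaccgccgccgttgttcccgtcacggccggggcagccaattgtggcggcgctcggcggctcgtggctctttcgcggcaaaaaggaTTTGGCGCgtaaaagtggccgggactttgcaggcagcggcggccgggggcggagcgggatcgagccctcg
E2F2: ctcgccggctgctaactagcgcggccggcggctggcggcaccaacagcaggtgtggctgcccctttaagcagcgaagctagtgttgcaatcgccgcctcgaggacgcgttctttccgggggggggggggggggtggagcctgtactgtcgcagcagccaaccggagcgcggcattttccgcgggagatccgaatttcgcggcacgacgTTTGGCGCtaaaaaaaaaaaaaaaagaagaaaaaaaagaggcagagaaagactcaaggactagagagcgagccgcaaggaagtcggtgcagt
Matches to TTTGGCGC or TTTCCCGC on either strand were found in 2.27% of the 35116 start windows in the RefSeq table and in 3.03% of the 20232 windows of genes tested. Windows of genes called at least 2-fold lower held them in 4.82% of cases and windows of genes called at least 2-fold higher in 1.46%. Among windows of the origin licensing and firing list the share was 36.7%, 11 of 30. A match is a description of the letters and no evidence of binding.

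Origin licensing and firing genes, which load and start the replicative helicase, all fell: 26 of 26, 19 of them at least 2-fold, with a median log2 change of -2.03. MCM10, which is needed to activate the helicase, read 64.8, 62.7 and 66.2 CPM and then 1.14, 0.675 and 0.937 CPM (log2 -6.14 ± 0.10). CDC45, a helicase subunit, fell by 4.53 ± 0.12. At the replication fork 22 of 23 genes fell and 1 rose, and POLE2, a subunit of the leading-strand polymerase, fell by 4.01 ± 0.12. The exception, POLD4, the small subunit of polymerase delta, rose from 9.10, 9.88 and 10.0 CPM to 20.6, 21.1 and 22.4 CPM (log2 1.14 ± 0.06). Nucleotide synthesis showed a pair of opposite subunits. RRM2, the S-phase subunit of ribonucleotide reductase, fell from 178, 176 and 173 CPM to 8.26, 9.30 and 9.33 CPM (log2 -4.30 ± 0.06). RRM2B, the subunit induced by p53, rose from 84.9, 83.1 and 81.7 CPM to 139, 140 and 131 CPM (log2 0.72 ± 0.04). Of 29 genes of nucleotide synthesis, 24 fell and 5 rose. Homologous recombination and Fanconi genes fell in 25 of 27 cases, with a median log2 change of -2.21, among them RAD54L and EXO1, a motor and a nuclease of strand exchange and resection.

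Of 26 mitotic regulators 25 fell and 1, LIN37, did not pass, with a median log2 change of -3.03. UBE2C, the ubiquitin-conjugating enzyme of the anaphase-promoting complex, fell from 128, 130 and 135 CPM to 10.1, 10.0 and 9.88 CPM (log2 -3.71 ± 0.05), and MKI67, the proliferation antigen Ki-67, from 629, 630 and 599 CPM to 62.0, 64.1 and 66.8 CPM (log2 -3.27 ± 0.05). Kinetochore genes fell in 25 of 26 cases. The kinesin motors give a comparison within one family. All 12 mitotic kinesins fell, each at least 2-fold, between log2 -3.71 ± 0.07 for KIF18B and -2.38 ± 0.04 for KIF11, with a median of -2.81. Of 15 transport kinesins 7 rose, 6 fell and 2 did not pass, with a median that changed sign with the scaling. The shares over all genes tested were 36.4% higher and 32.5% lower. KIF13A, which carries melanosome and endosome cargo, rose from 48.0, 47.2 and 46.3 CPM to 139, 139 and 140 CPM (log2 1.56 ± 0.03). KIF21B, a motor of neuronal transport, fell by 2.55 ± 0.06, and KIF1B read 160 to 167 CPM in all 6 libraries.

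Start regions of mitotic genes often hold the cell cycle homology region, the short element read by the DREAM and MuvB complexes. KIF18B is shown since it fell furthest of the mitotic kinesins: its window lies at chr17:44947724-44948023 (minus strand, RefSeq, GRCh38.p14), and the capitals mark TTTGAA, 3 bases into the transcript.
KIF18B: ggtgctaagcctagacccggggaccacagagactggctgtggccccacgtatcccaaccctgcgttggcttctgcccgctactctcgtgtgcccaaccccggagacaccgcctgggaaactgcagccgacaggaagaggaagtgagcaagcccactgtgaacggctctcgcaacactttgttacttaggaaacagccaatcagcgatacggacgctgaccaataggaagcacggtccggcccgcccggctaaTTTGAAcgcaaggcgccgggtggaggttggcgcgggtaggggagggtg
TTTGAA or TTCGAA on either strand was found in 11 of 13 windows of the mitotic kinesins (84.6%), in 18 of 37 windows of the mitotic regulators (48.6%) and in 1 of 17 windows of the transport kinesins (5.88%). Of the other lists searched, kinetochore genes held these letters in 42.3% of windows, pigment genes in 36.0% and E2F genes in 27.3%. The AP-1 and MAF, lysosome, origin licensing and replication fork lists held them in 8.33%, 7.5%, 6.67% and 3.85%. The letters were thus not particular to lists that fell, nor common in all of those. The share was 12.7% over all windows of genes tested, 18.4% over those called at least 2-fold lower and 14.5% over those at least 2-fold higher. Windows of 1 gene overlap in part, so they are not independent.

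Ribosome production and translation were mostly lower at the transcript level. MYC, a regulator of ribosome production, read 21.9, 23.3 and 23.7 CPM and then 1.39, 1.45 and 1.26 CPM (log2 -4.07 ± 0.11). Of 39 genes of RNA polymerase I and ribosome assembly 37 fell, with a median of -1.21, for example LYAR, a nucleolar factor, by 2.57 ± 0.05. Translation initiation factors fell in 32 of 40 cases with a median of -0.43. EIF4EBP1, the repressor of the cap-binding protein that mTOR inactivates, fell from 111, 115 and 123 CPM to 22.3, 23.1 and 27.3 CPM (log2 -2.27 ± 0.06), and its relative EIF4EBP2 rose by 0.28 ± 0.03. Cytosolic ribosomal proteins moved little: of 72 genes 47 were called lower, 3 higher and 22 did not pass, and their median of -0.15 became 0.04 when libraries were scaled by their totals alone.

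Chaperones, glycolysis and the proteasome fell across their lists. Of 28 chaperones 27 fell, with a median of -1.17. HSPA8, the constitutive HSP70, read 2720, 2689 and 2878 CPM and then 540, 530 and 546 CPM (log2 -2.36 ± 0.03), and HSPA2, a testis-enriched HSP70, was the member that rose (log2 0.93 ± 0.06). Of 25 glycolytic genes 22 fell, among them LDHA, lactate dehydrogenase A, from 1587, 1604 and 1672 CPM to 445, 452 and 461 CPM (log2 -1.84 ± 0.03). PFKFB2 and PFKFB4, enzymes that set the level of the glycolytic activator fructose 2,6-bisphosphate, rose, and PFKFB3, from the same family, fell by 1.67 ± 0.03. Of 37 proteasome genes 33 fell and 4 rose. The 4 that rose were PSMB8, PSMB9 and PSMB10, the catalytic subunits of the immunoproteasome, and PSME1, a subunit of its activator. PSMB10 rose from 3.97, 4.16 and 4.75 CPM to 12.0, 11.4 and 12.0 CPM (log2 1.46 ± 0.09).

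Amino acid transporters moved in both directions, with 8 higher and 12 lower of 20 tested. The shares over all genes tested were 36.4% higher and 32.5% lower. SLC7A8, the exchanger LAT2, rose from 7.26, 7.50 and 7.97 CPM to 116, 114 and 122 CPM (log2 3.96 ± 0.05), and SLC7A1, a carrier of cationic amino acids, fell from 243, 255 and 243 CPM to 50.6, 50.4 and 55.2 CPM (log2 -2.25 ± 0.03). Sterol and fatty acid synthesis fell in 21 of 28 genes, with a median of -0.64. In fatty acid handling CD36, an importer, and LPL, the lipase that releases fatty acids from lipoproteins, went in opposite directions. LPL read 37.0, 36.8 and 39.1 CPM in DMSO and 0.244, 0.434 and 0.367 CPM under trametinib (log2 -6.75 ± 0.13). CD36 read 0.708, 0.895 and 0.775 CPM and then 89.7, 92.8 and 87.7 CPM (log2 6.82 ± 0.10). PPARGC1A, the coactivator PGC-1alpha of mitochondrial genes, rose by 3.20 ± 0.11 and its relative PPARGC1B fell by 1.97 ± 0.09.

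Lysosome and autophagy genes rose more often than they fell. Of 49 genes of the proton pump and lysosomal enzymes 34 rose, 10 fell and 5 did not pass, with a median of 0.38 against 0.06 over all genes. PSAP, the precursor of the saposins, rose from 825, 829 and 863 CPM to 1874, 1844 and 1949 CPM (log2 1.17 ± 0.03). CTSS, a cysteine protease, rose by 2.06 ± 0.09, while CTSZ and CTSC, proteases of the same family, fell by 1.53 ± 0.03 and 1.43 ± 0.03. Of 36 autophagy genes 27 rose and 6 fell. MAP1LC3C, a homologue of the autophagosome protein LC3, read 0.513, 0.765 and 1.06 CPM in DMSO and 61.8, 62.2 and 60.2 CPM under trametinib (log2 6.30 ± 0.11).

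**Figure D3:**
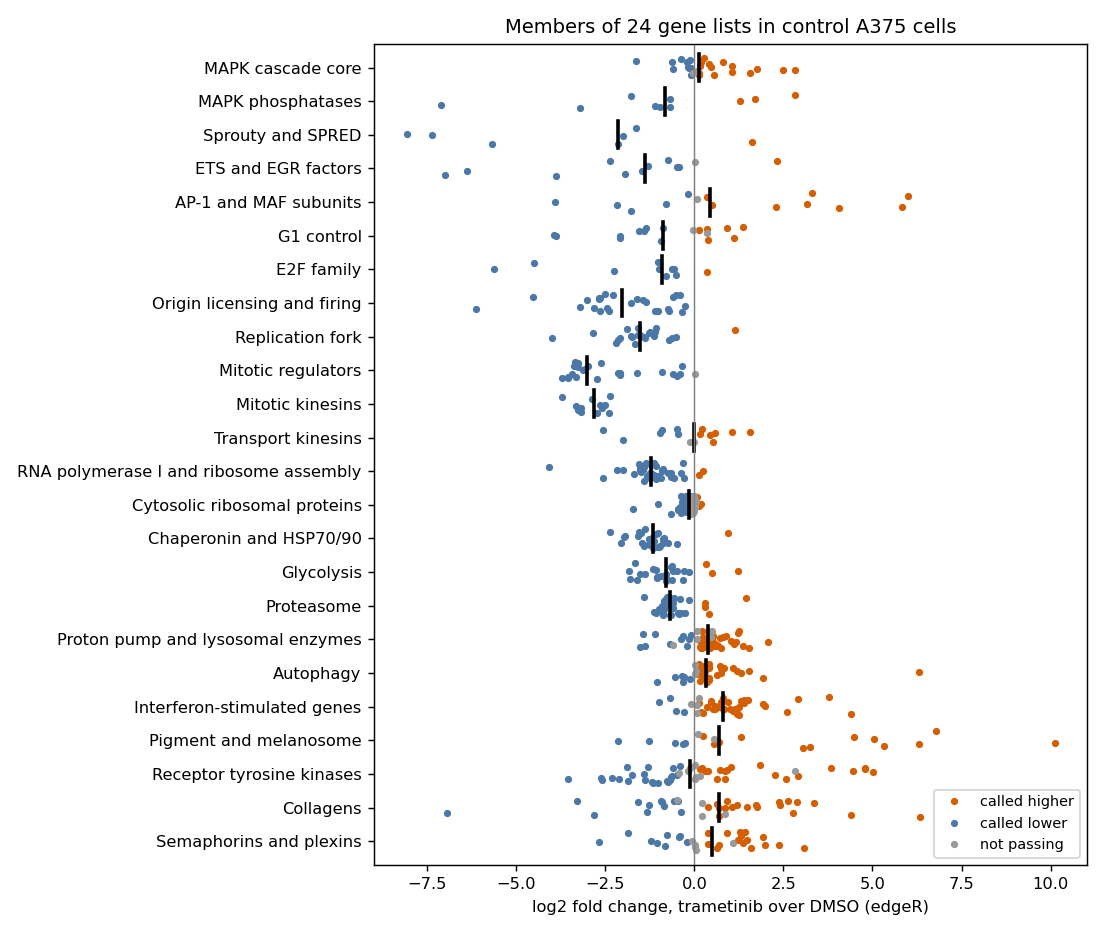
Log2 fold change of each tested member of 24 gene lists, trametinib over DMSO, 1 point per gene, orange for genes called higher, blue for lower and grey for those that did not pass, with a black bar at the median of the list. Cell cycle lists lie left of 0 with medians down to -3.03, lysosome and autophagy lists lie mostly right of it, and transport kinesins straddle it.

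Pigment genes rose in part, where 36.4% of all genes tested were called higher and 32.5% lower. Of 19 tested, 12 rose, 5 fell and 2 did not pass, with a median of 0.69 that became 1.265 without DMSO library 2. Each median covers the members kept by the count filter in its own fit, so the members may differ. DCT, the enzyme dopachrome tautomerase of melanin synthesis, read 1.12, 0.830 and 0.861 CPM in DMSO and 1042, 1036 and 1063 CPM under trametinib (log2 10.12 ± 0.06). GPNMB, a melanosome glycoprotein, rose from 223, 225 and 233 CPM to 1881, 1869 and 1931 CPM (log2 3.06 ± 0.03). CAPN3, a calpain expressed in melanocytes, rose from 0.125, 0.104 and 0.0861 CPM to 8.86, 8.24 and 7.96 CPM (log2 6.29 ± 0.19). Other melanosome genes moved against these. OCA2, a melanosomal anion channel, fell from 1.65, 1.54 and 1.46 CPM to 0.269, 0.325 and 0.462 CPM (log2 -2.15 ± 0.27), and MLPH, which tethers melanosomes to myosin, fell by 1.27 ± 0.15. MLANA stayed under 2.1 CPM in every library although it rose (log2 1.30 ± 0.17), and SLC45A2 and GPR143 did not pass and stayed under 0.5 CPM.

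The start region of DCT is shown because this gene made the largest rise of any protein-coding gene named here and its window holds 2 matches to the M-box, the element that MITF is known to bind. It lies at chr13:94479633-94479932 (minus strand, RefSeq, GRCh38.p14). Capitals mark TCATGTG, whose first base lies 135 bases before the start, and CACATGA, its reverse complement, 215 bases before the start.
DCT: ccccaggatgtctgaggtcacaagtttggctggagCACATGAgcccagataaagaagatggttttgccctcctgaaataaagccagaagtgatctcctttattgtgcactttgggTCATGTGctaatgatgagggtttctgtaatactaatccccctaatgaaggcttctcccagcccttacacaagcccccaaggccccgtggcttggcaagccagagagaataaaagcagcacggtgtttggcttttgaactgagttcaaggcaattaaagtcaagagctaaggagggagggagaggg
The M-box letters TCATGTG, the related letters TCACGTG and the E-box CATGTG, which the first contains, were searched on either strand. Any of them was found in 11 of 25 windows of the pigment list (44.0%) and in 14 of 40 windows of the lysosome list (35.0%). Of the other lists searched, AP-1 and MAF genes held them in 4 of 12 windows (33.3%), origin licensing genes in 23.3% and kinetochore genes in 19.2%. Mitotic regulators, replication fork genes and transport kinesins held them in 8.11%, 7.69% and 5.88%, and mitotic kinesins and E2F genes in 0%. The share was 13.0% over windows of genes tested, 14.3% over those at least 2-fold higher and 13.7% over those at least 2-fold lower. MITF itself rose from 79.1, 78.8 and 79.6 CPM to 141, 144 and 136 CPM (log2 0.83 ± 0.03).

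Among 21 lineage factors of melanocytes and the neural crest, 11 rose, 8 fell and 2 did not pass. The shares over all genes tested were 36.4% higher and 32.5% lower. SOX10, which specifies the lineage, read 853, 880 and 919 CPM and then 1050, 987 and 1099 CPM (log2 0.24 ± 0.04). SOX4 rose from 37.8, 37.5 and 36.2 CPM to 456, 456 and 433 CPM (log2 3.59 ± 0.04) and SOX2, a factor of stem and Schwann lineage cells, from 21.0, 20.7 and 21.5 CPM to 147, 149 and 145 CPM (log2 2.80 ± 0.06). FOXD3, a factor of premigratory neural crest, rose by 2.37 ± 0.05. TFAP2B fell from 281, 277 and 285 CPM to 36.9, 35.8 and 37.0 CPM (log2 -2.94 ± 0.04), and LEF1, the nuclear partner of beta-catenin, by 2.47 ± 0.05. Factors of epithelial-mesenchymal transition were split too. ZEB2 and SNAI2, which melanocytes express, rose by 1.89 ± 0.04 and 3.33 ± 0.08. ZEB1 and TWIST1 fell by 1.60 ± 0.05 and 0.92 ± 0.07.

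**Figure D4:**
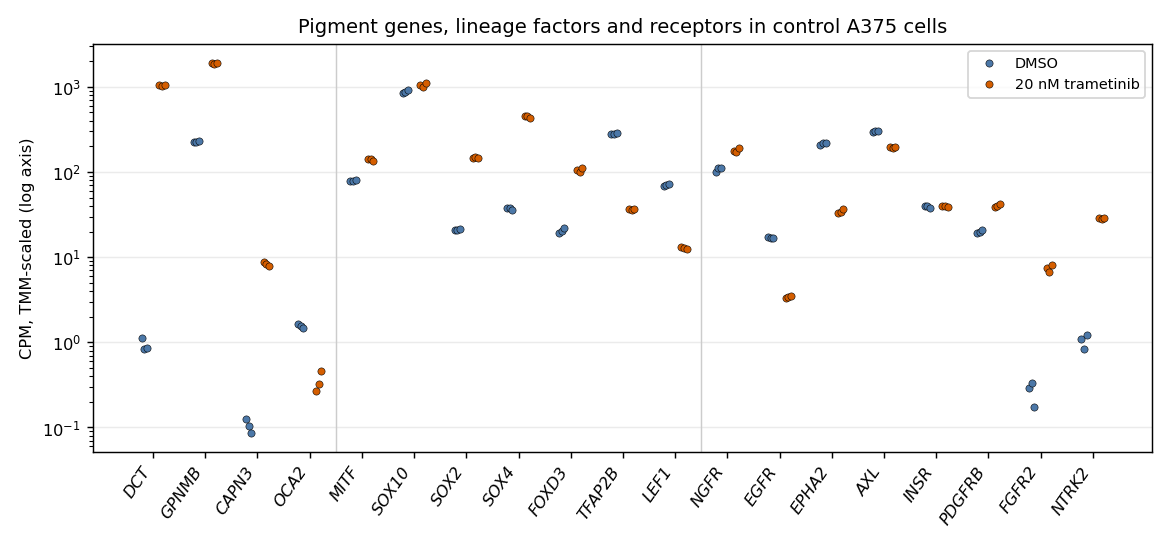
Level of 19 genes in each of the 3 DMSO libraries (blue) and 3 trametinib libraries (orange), in CPM on a log axis, 1 point per library, in the order pigment genes, lineage factors, receptors. DCT rises from about 1 CPM to over 1036 CPM, INSR overlaps between the groups, and OCA2, TFAP2B, LEF1, EGFR, EPHA2 and AXL lie lower under trametinib.

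Receptor tyrosine kinases are the usual input of the cascade. Of 49 tested, 19 rose and 22 fell, 10 and 14 of them at least 2-fold, and 8 did not pass, where 36.4% of all genes were called higher and 32.5% lower, 17.1% and 12.4% at least 2-fold. EGFR fell from 17.3, 16.8 and 16.9 CPM to 3.28, 3.45 and 3.46 CPM (log2 -2.33 ± 0.07) and EPHA2, an ephrin receptor, from 205, 219 and 221 CPM to 33.4, 33.7 and 37.2 CPM (log2 -2.63 ± 0.05). NTRK2, the receptor of brain-derived neurotrophic factor, rose from 1.08, 0.843 and 1.22 CPM to 28.7, 28.1 and 29.1 CPM (log2 4.78 ± 0.10), FGFR2 from 0.291, 0.337 and 0.172 CPM to 7.44, 6.71 and 8.19 CPM (log2 4.78 ± 0.20), and PDGFRB by 1.02 ± 0.05. INSR, the insulin receptor, read 38.0 to 40.0 CPM in all 6 libraries. Of 31 ligands tested 12 rose and 17 fell. TGFA, a ligand of EGFR, fell from 879, 874 and 895 CPM to 34.6, 34.3 and 35.2 CPM (log2 -4.67 ± 0.03). FGF1 and FGF5 rose by 1.86 ± 0.06 and 2.86 ± 0.21. NGFR, the low-affinity neurotrophin receptor, rose from 101, 112 and 110 CPM to 175, 172 and 190 CPM (log2 0.73 ± 0.04).

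Genes of insulin signalling and FOXO targets rose more often than they fell, 16 against 8 of 29. Of all genes tested 36.4% were called higher and 32.5% lower. The list had a median log2 change of 0.11, close to the 0.06 over all genes. IRS1, an adaptor of the insulin receptor, fell by 2.22 ± 0.06. TXNIP, which limits glucose uptake and is activated by FOXO and MondoA factors, rose from 42.7, 46.4 and 48.4 CPM to 454, 430 and 439 CPM (log2 3.27 ± 0.04). PIK3IP1, a membrane inhibitor of PI3K, rose from 0.499, 0.674 and 0.646 CPM to 8.95, 8.18 and 10.0 CPM (log2 3.89 ± 0.14), SESN3, an inhibitor of mTORC1, by 2.71 ± 0.04, and PIK3R1, the regulatory subunit of PI3K, by 1.87 ± 0.04. FOXO1 read 30.3 to 32.4 CPM in all 6 libraries and did not pass.

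Members of the BCL2 family moved on both sides of the balance between survival and apoptosis. BMF, a pro-apoptotic protein with a BH3 domain, rose from 8.82, 9.05 and 8.60 CPM to 259, 253 and 262 CPM (log2 4.87 ± 0.04), HRK, of the same class, from 1.76, 1.60 and 1.41 CPM to 18.4, 18.5 and 18.3 CPM (log2 3.53 ± 0.10), and BCL2L11, which encodes BIM, by 1.35 ± 0.05. PMAIP1, which encodes NOXA, also pro-apoptotic, fell from 16.5, 15.8 and 15.5 CPM to 0.929, 0.771 and 1.24 CPM (log2 -4.04 ± 0.11). Among survival proteins, BCL2A1, a target of MITF, rose by 3.62 ± 0.13, while MCL1 fell from 606, 590 and 585 CPM to 343, 338 and 340 CPM (log2 -0.80 ± 0.03) and BCL2 by 1.97 ± 0.11. In total 8 of 16 rose, 6 fell and 2 did not pass, where 36.4% of all genes tested were called higher and 32.5% lower.

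At the cell surface and in the matrix, integrins fell in 13 of 23 genes tested and rose in 6. Beside this and the next counts, 36.4% of all genes tested were called higher and 32.5% lower. ITGB3, the beta 3 integrin, fell from 221, 227 and 224 CPM to 7.22, 6.22 and 6.64 CPM (log2 -5.06 ± 0.05), and ITGA4, the alpha 4 integrin, rose by 1.35 ± 0.03. SERPINE2, a serine protease inhibitor, took 0.581% of all counts in DMSO and 0.104% under trametinib, the largest loss of any gene in CPM. TIMP3, an inhibitor of metalloproteinases, fell from 1738, 1792 and 1805 CPM to 196, 185 and 194 CPM (log2 -3.22 ± 0.03), and MMP1, a collagenase, from 5.34, 5.53 and 6.00 CPM to 0.0978, 0.133 and 0.0679 CPM (log2 -5.78 ± 0.16). Collagens rose in 19 of 35 cases and fell in 12, the falls near the share over all genes. COL21A1 rose by 6.32 ± 0.09 and COL13A1, a transmembrane collagen, fell by 6.95 ± 0.19. Targets of the coactivator YAP fell in 16 of 25 cases, among them CCN1 (log2 -3.27 ± 0.06) and NT5E, the ectoenzyme CD73, from 95.0, 93.0 and 99.1 CPM to 3.21, 4.10 and 3.19 CPM. Semaphorins and plexins rose in 16 of 30 and fell in 9, with SEMA3C, a secreted guidance cue, at 105, 104 and 107 CPM and then 894, 872 and 876 CPM (log2 3.06 ± 0.04).

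Secreted and sensed immune signals moved apart. Of 25 chemokines, interleukins and related genes tested 15 fell and 4 rose. CXCL8, the chemokine IL-8, fell from 15.5, 13.9 and 16.0 CPM to 0.0244, 0.0482 and 0.163 CPM (log2 -7.61 ± 0.22, or -8.635 without trametinib library 3). NFKBIA, the inhibitor of NF-kB that NF-kB induces, rose by 2.00 ± 0.05. Interferon-stimulated genes rose in 34 of 42 cases and fell in 4, with a median of 0.80. TRIM22 rose from 1.30, 0.895 and 0.861 CPM to 6.25, 6.50 and 5.70 CPM (log2 2.59 ± 0.11). HLA-E, a class I molecule, rose by 1.06 ± 0.03, and HLA-C did not pass. PVR, a ligand of the receptors TIGIT and CD226, fell by 1.68 ± 0.04.

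Of 20 histone demethylases 12 were called higher and 5 lower, none of them 2-fold. Over all genes tested 36.4% were called higher and 32.5% lower, 17.1% and 12.4% at least 2-fold. Of 18 deacetylases and sirtuins 13 were higher and 2 lower, 3 of those higher at least 2-fold, with HDAC9 at 12.0, 12.1 and 11.3 CPM and then 52.8, 52.9 and 49.7 CPM (log2 2.14 ± 0.06). Of 24 SAGA genes 10 were higher, 9 lower and 5 did not pass. KAT2B, an acetyltransferase subunit, was the member called at least 2-fold, from 55.4, 52.6 and 53.9 CPM to 263, 249 and 254 CPM (log2 2.24 ± 0.03), while its paralogue KAT2A read 52.9 to 58.2 CPM in all 6 libraries. TADA2B rose by 0.41 ± 0.04. Clock genes rose in 12 of 23 cases and fell in 6. NPAS2, a paralogue of CLOCK, fell from 156, 157 and 157 CPM to 18.0, 17.5 and 18.2 CPM (log2 -3.13 ± 0.04), and NFIL3 rose by 2.05 ± 0.06. Of 36 nuclear receptors 19 rose and 8 fell, with NR2F1 at log2 3.53 ± 0.07 and RXRG, a marker of a neural crest-like melanoma state, at -2.12 ± 0.07.

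Some genes went from near silence to clear expression or back. Under 0.5 CPM in all 3 DMSO libraries and at least 5 CPM in all 3 trametinib libraries were 24 genes, 17 of them protein-coding, and 20 genes, 14 of them protein-coding, did the reverse. Among those switched on was ANGPTL7, a secreted angiopoietin-like protein, with 0.0139, 0.0519 and 0.129 CPM in DMSO and 46.1, 44.3 and 45.7 CPM under trametinib (log2 9.43 ± 0.16, or 10.34 without DMSO library 3). GRIN2A, a subunit of the NMDA glutamate receptor, read 0.0694, 0.104 and 0.201 CPM and then 34.2, 32.2 and 34.2 CPM (log2 8.07 ± 0.15). PRDM7, a paralogue of the recombination factor PRDM9 whose reads could be shared with it, went from 0.0878 ± 0.0359 to 11.2 ± 0.639 CPM (SD, n = 3). The non-coding RNA LINC00518 rose from 0.472, 0.376 and 0.344 CPM to 12.7, 12.8 and 12.4 CPM (log2 4.98 ± 0.18). LPL, SPRY1, E2F2 and CXCL8, given above, were among those switched off, together with the non-coding RNA LINC00326.

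Changes in the share of counts were led by abundant transcripts. GPNMB, PSAP and MALAT1 were among the 10 genes that gained most CPM. MALAT1 and NEAT1, abundant nuclear RNAs, rose by 1.10 ± 0.11 and 1.42 ± 0.14. EEF1A1P5, with the largest gain, is an almost identical copy of EEF1A1, so its reads cannot be assigned to it with certainty. Losses were led by SERPINE2, ACTB, ENO1, HSPA8 and PKM. ACTB, cytoplasmic actin, fell from 3932 ± 127 to 1611 ± 33.4 CPM (log2 -1.29 ± 0.03). GAPDH, like ACTB a common reference gene, fell by 0.48 ± 0.03 on the log2 scale.

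Vemurafenib inhibits mutant BRAF, the kinase above MEK. The same DMSO libraries serve both drugs, so the responses are given side by side and the drugs were tested directly against each other. The doses differ, 20 nM trametinib and 1 uM vemurafenib, at the same 24 h. Trametinib and vemurafenib libraries differed in 4117 of 25199 genes (16.3%). DUSP6 stood at 1.05 ± 0.0901 CPM under trametinib and 13.8 ± 0.679 CPM under vemurafenib, a difference of -3.72 ± 0.08 on the log2 scale (adjusted p = 9.58e-36). SPRY2 stood at 4.89 ± 0.433 and 22.6 ± 0.964 CPM (log2 -2.21 ± 0.06), and TFAP2B at 36.6 ± 0.653 and 185 ± 3.95 CPM (log2 -2.34 ± 0.04). Some genes were higher under trametinib. MAP1LC3C stood at 61.4 ± 1.08 and 11.2 ± 0.852 CPM (log2 2.45 ± 0.07), ATF3 at 153 ± 3.04 and 60.0 ± 1.65 CPM (log2 1.35 ± 0.04), FOSL2 at 499 ± 9.62 and 240 ± 5.65 CPM (log2 1.06 ± 0.03), and NGFR rose with trametinib while its vemurafenib change was 0.11 (difference 0.63 ± 0.04). KAT2B was higher under vemurafenib, 398 ± 13.5 CPM against 255 ± 6.86 CPM (log2 -0.64 ± 0.03). For other genes no difference was called. E2F1 stood at 1.68 and 1.89 CPM (difference -0.16 ± 0.11, adjusted p = 0.378), ANGPTL7 at 45.4 and 43.0 CPM (0.08 ± 0.07, adjusted p = 0.548), RRM2 at 8.96 and 9.38 CPM (-0.07 ± 0.07, adjusted p = 0.599) and FOXD3 at 106 and 103 CPM (0.05 ± 0.04, adjusted p = 0.575). The standard errors bound these differences, and a missed threshold does not show equality.

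The TADA2B knockout cells have DMSO and trametinib libraries of their own and so give the same contrast in other samples. In DMSO the TADA2B transcript read 30.2, 31.2 and 32.1 CPM in control cells, 29.6, 31.1 and 30.6 CPM in guide 1 cells and 29.0, 27.3 and 29.6 CPM in guide 2 cells. Under trametinib it read 40.5, 40.7 and 42.8 CPM in control cells, 34.2, 35.7 and 34.8 CPM with guide 1 and 28.8, 29.4 and 29.8 CPM with guide 2, without overlap. The transcript was present in every library of both knockout lines, and its counts do not measure the protein. Of the 4317 genes called at least 2-fold higher in control cells, 3439 (79.7%) were called higher with guide 1 and 3158 (73.2%) with guide 2, where 32.4% and 31.5% of all genes tested were called higher. Of the 3137 at least 2-fold lower, 2560 (81.6%) were called lower with guide 1 and 2450 (78.1%) with guide 2, against 31.4% and 30.2% of all genes. Calls in the opposite direction numbered 29 and 78 among those higher and 30 and 77 among those lower. BMF rose by 4.87 ± 0.04 in control cells, and by 4.64 ± 0.04 (guide 1) and 4.48 ± 0.04 (guide 2) in the knockout lines. TXNIP rose by 3.27 ± 0.04, 3.11 ± 0.04 and 3.22 ± 0.04.

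The size of the response was tested as the mean response of both knockout lines minus that of control cells, and 11066 of 25199 genes (43.9%) were called. Each response is relative to the DMSO libraries of its own line. A difference can lie in the DMSO level, the trametinib level or both, and which of them was not tested. E2F2 fell by 2.87 ± 0.11 and 2.41 ± 0.11 with guide 1 and guide 2, less than in control cells (difference 2.97 ± 0.18, adjusted p = 3.78e-19). LPL fell by 4.14 ± 0.11 and 3.55 ± 0.12 (difference 2.91 ± 0.18) and IGFBP3, a binding protein of insulin-like growth factors, by 2.87 ± 0.06 and 2.14 ± 0.06, against 5.45 ± 0.09 in control cells (difference 2.95 ± 0.11). For JUN, ATF3 and FOSL2 the rise was smaller. JUN rose by 3.97 ± 0.04 and 2.52 ± 0.04 (difference -2.76 ± 0.05, adjusted p = 7.06e-39), ATF3 by 3.46 ± 0.06 and 2.30 ± 0.06 (difference -2.96 ± 0.08) and FOSL2 by 2.33 ± 0.04 and 1.29 ± 0.03 (difference -2.24 ± 0.04). GRIN2A rose by 3.90 ± 0.12 and 3.42 ± 0.13 (difference -4.41 ± 0.24) and DCT by 9.15 ± 0.08 and 7.96 ± 0.08 (difference -1.57 ± 0.18). Phosphatase genes differed in both directions. DUSP6 fell by 7.83 ± 0.07 and 7.84 ± 0.07, further than in control cells (difference -0.71 ± 0.13, adjusted p = 6.02e-06), and DUSP4 by 4.07 ± 0.03 and 4.61 ± 0.03 (difference -1.13 ± 0.04). DUSP2, a further nuclear phosphatase, fell in control cells (log2 -1.78 ± 0.14) and rose with guide 1 and guide 2 (0.86 ± 0.11 and 1.14 ± 0.11, difference 2.78 ± 0.16). Most of these genes were named for their change in control cells, which enters the difference, so a smaller response in the knockout lines is partly set by that choice.

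**Figure D5:**
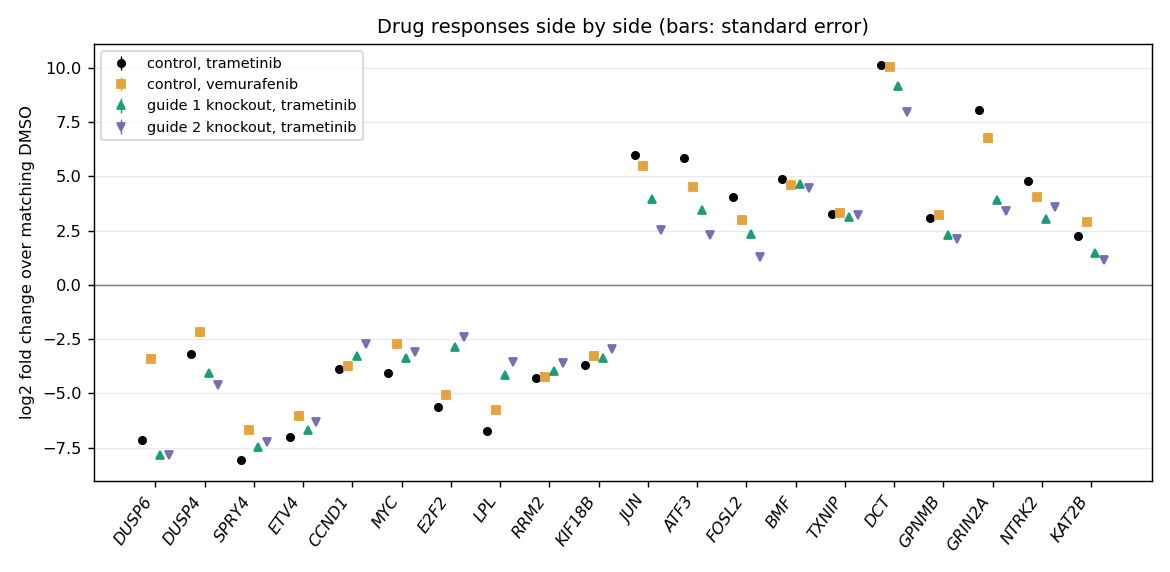
Log2 fold change over the matching DMSO libraries for 20 genes, with standard error bars that are mostly smaller than the symbols: trametinib in control cells (black), vemurafenib in control cells (orange), and trametinib in guide 1 (green) and guide 2 (purple) knockout cells. The 4 responses share their sign for every gene drawn, DUSP6 falls by 7.13 with trametinib and 3.41 with vemurafenib in control cells, and JUN rises least with guide 2.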

How the data were processed

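RNA of control A375 cells was sequenced after 24 h in DMSO or 20 nM trametinib, 3 libraries each. The deposited table holds the authors' whole-number read counts for each gene, not normalized. Per the submitters' processing notes, bcl2fastq, HISAT2 and HTSeq were used with hg38; the sources used here give no versions, annotation release or strand setting, so overlapping and antisense genes are uncertain. Per the labels' protocols, libraries were made with the KAPA stranded mRNA kit. All 58721 identifiers matched GENCODE 29, used for gene types; start windows came from RefSeq.

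The filterByExpr function dropped genes of low count and kept 25199. edgeR 4.0.16 (R 4.3.3) fitted 9 group means to all 27 libraries with TMM scaling and a robust quasi-likelihood test, with 18 residual degrees of freedom and Benjamini-Hochberg adjustment over all genes tested. Libraries within the DMSO and trametinib groups of control cells differed by more than sampling noise (chi-square per degree of freedom 4.13 to 7.11). An error after a log2 value is its standard error, after CPM the SD of 3 libraries. Alternatives used DESeq2 1.42.0 and limma 3.58.1. The fitting script was tested on simulated data.

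Genes named were the 15 largest rises and falls among called protein-coding genes of average log2 CPM of at least 1, 5 long non-coding RNAs each way, up to 4 called each way per list with up to 2 that did not pass, every member of lists of 15 or fewer and of the MAPK core, 8 genes on and 8 off, the 10 largest CPM gains and losses, and 16 set genes. In the other comparisons, genes already named were given. The members and the gene lists were chosen with earlier results of these data known. Not every gene that the rule picks is described, and some are not reported here.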

Additional observations from a re-analysis of the deposited data

Results flagged for a closer look

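The response to trametinib differed between TADA2B knockout and control cells for the genes whose difference the report gives, by edgeR's quasi-likelihood test of the mean response of both knockout lines minus that of control cells, adjusted over all genes tested. Falls were smaller in knockout cells by 2.97 ± 0.18 on the log2 scale for E2F2, 2.91 ± 0.18 for LPL and 2.95 ± 0.11 for IGFBP3. Rises were smaller for GRIN2A (-4.41 ± 0.24), ATF3 (-2.96 ± 0.08), JUN (-2.76 ± 0.05), FOSL2 (-2.24 ± 0.04) and DCT (-1.57 ± 0.18). The falls of DUSP6 (-0.71 ± 0.13) and DUSP4 (-1.13 ± 0.04) were larger. DUSP2 fell in control cells and rose in both knockout lines (2.78 ± 0.16). The adjusted p was at most 6.02e-06. Each guide gave the same direction of difference. Most of these genes were chosen for their change in control cells, which enters the difference. The DMSO level of each line enters it too. Groups of 3 libraries were not searched for single outlying values.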

How the results depend on the processing

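Direction and call held for 231 of 243 gene results under every alternative tried, and the other 12, none of which passed the test, changed under at least 1. In 27 pairs of gene and alternative such a gene was called with its sign kept, 7 of them with library totals. By edgeR's test with library totals, CDK4 (adjusted p = 1.62e-05) and KIF1B (adjusted p = 8.71e-08) were called higher, with their sign turned. With upper quartile factors KIF1B was also called higher (adjusted p = 0.00187 in edgeR's test). Signs turned for CDK4 (0.01 with at least 1 CPM in 3 libraries, 0.156 with library totals, 0.066 with upper quartile factors), KIF1B (0.038, 0.184 and 0.094 in the same order, 0.011 with no low-count filter) and HLA-C (0.073 with library totals). FOXO1 turned to -0.008 with DESeq2 (size factors and Wald test) and -0.006 with only the groups compared, with or without the replicate block. KAT2A turned to -0.006 with DESeq2, -0.004 with only the groups compared and -0.005 with the replicate block added. With 1 library left out, log2 changes that turned sign ranged from -0.067 to 0.001 for CDK4, -0.024 to 0.073 for ELK4, -0.016 to 0.033 for FOXO1, -0.119 to 0.362 for GPR143, -0.009 to 0.025 for INSR, -0.025 to 0.044 for KAT2A, -0.017 to 0.011 for KIF1B and -0.065 to 0.088 for LIN37. The cause was not tested.

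Between 14319 and 17722 genes were called across alternatives, and 16745 to 16873 with 1 library left out. Genes at least 2-fold higher numbered 2606 with at least 1 CPM in 3 libraries, where fewer genes are tested, against 4317, and 2887 higher and 2242 lower passed a test against 2-fold itself. With 1 library left out, genes switched on numbered 24 to 28 and off 20 to 23 (chosen after seeing the data), and 3145 to 4189 genes differed between the drugs. Library totals changed the sign of 133 called genes. Medians of the KLF, transport kinesin, receptor tyrosine kinase, ribosomal protein, TGF-beta, fatty acid uptake and oxidation, snoRNA host, keratinocyte and endothelial lists changed sign with the scaling, so these medians show no direction. Those of the transport kinesin, TGF-beta and keratinocyte lists also changed sign with 1 library left out.

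By their labels, libraries of DMSO and trametinib share only a replicate number. Deviations of same-numbered libraries correlated at 0.0506, 0.0144 and 0.142, the last the highest of any pair. Differently numbered pairs ranged from -0.134 to 0.0954, the latter for DMSO 1 with trametinib 2. Whether same-numbered libraries were paired cannot be told from these values. With the replicate block 17332 genes were called, 9172 higher and 8160 lower, 4064 between the drugs, and 16603 with only the 2 groups.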

Other observations

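Of 21 glutamate receptor genes tested, 11 were called higher, each at least 2-fold, 2 lower and 8 did not pass. Over all genes tested 36.4% were called higher and 32.5% lower, 17.1% and 12.4% at least 2-fold. GRIK2, a kainate receptor subunit, read 36.0, 35.9 and 35.6 CPM in DMSO and 156, 151 and 157 CPM under trametinib (log2 2.11 ± 0.04). Among cyclic AMP enzymes 7 of 18 were higher and 9 lower, the rises near the share over all genes. PDE4B, a phosphodiesterase specific for cyclic AMP, rose from 17.2, 16.6 and 17.6 CPM to 34.2, 35.9 and 35.5 CPM (log2 1.04 ± 0.04), while PDE3A fell by 1.66 ± 0.04 and the cyclase ADCY1 fell by 2.54 ± 0.08.

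Of 39 genes of the WNT pathway 20 were lower, 9 higher and 10 did not pass. Beside this and the next counts, 36.4% of all genes tested were called higher and 32.5% lower. SFRP1, a secreted WNT antagonist, fell from 489, 495 and 505 CPM to 46.1, 46.6 and 46.5 CPM (log2 -3.42 ± 0.03), and LGR4, an R-spondin receptor, rose from 16.8, 15.2 and 15.5 CPM to 80.7, 80.0 and 79.5 CPM (log2 2.34 ± 0.05). INHBA, the activin A subunit, fell from 165, 172 and 166 CPM to 20.1, 19.2 and 19.7 CPM (log2 -3.09 ± 0.05), and TGFB2 rose by 2.32 ± 0.12. Of 14 KLF factors 7 were lower, 4 higher and 3 did not pass. KLF9 rose from 268, 272 and 271 CPM to 757, 723 and 722 CPM (log2 1.44 ± 0.03), and KLF4, a factor that controls proliferation and differentiation, fell by 2.79 ± 0.07. PTPRC, the leukocyte antigen CD45, rose from 0.0555, 0 and 0.0574 CPM to 2.91, 2.48 and 2.63 CPM (log2 6.13 ± 0.34, or 5.53 without DMSO library 2), and 4 of the 9 leukocyte markers tested were called higher, 1 lower and 4 did not pass.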
